A study of Mus musculus with 8 samples.

Results

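The piRNA pathway genes examined here are 10 genes named for this purpose: the Piwi genes *Piwil1* and *Piwil2*, the Tudor genes *Tdrd1*, *Tdrd5*, *Tdrd6* and *Tdrd9*, the helicase gene *Mov10l1*, *Mael*, *Gtsf1* and the transcription factor gene *Mybl1*. They were taken by gene symbol from a table of 18097 genes measured in whole mouse testis. Of the 10, 7 were found in the table, and *Tdrd5*, *Tdrd9* and *Gtsf1* were not found under their symbols or synonyms and are not analysed here. Testes without *Zfy* had lower mean signals than testes with a *Zfy2* transgene for *Tdrd6* (log2 difference -3.73), *Piwil1* (-1.48) and *Piwil2* (-0.64), whereas *Mov10l1* was at 0.18. None of the 4 differences passed an adjusted p of 0.05 over all genes.

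The animals were MF1 males of 17.5 days *post partum* (dpp), an age at which the first wave of germ cells has reached pachynema of meiosis. All had a single X chromosome and no Y chromosome. Every animal carried 2 genes of the Y as transgenes, the testis-determining gene *Sry* and the translation factor gene *Eif2s3y*, without which germ cells of the testis hardly multiply. The 4 XEO,Sry animals had no *Zfy* gene, and the 4 XE,Z2O,Sry animals carried an X-linked *Zfy2* transgene in addition, so that *Zfy1* and the other Y genes were missing from both genotypes and no XY male was among the samples used here. In the RefSeq annotation of GRCm38.p6, *Piwil1* is on chromosome 5, *Piwil2* on 14, *Tdrd6* on 17, *Tdrd1* on 19, *Mov10l1* on 15, and *Mael* and *Mybl1* on 1. Total RNA of each testis sample was hybridized to an Illumina BeadChip of its own. Each value is the normalized log2 fluorescence of a gene's beads, and differences are XEO,Sry minus XE,Z2O,Sry.

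Piwi-interacting RNAs (piRNAs) are short RNAs of germ cells that guide Piwi proteins to the transcripts of transposons and to other RNAs. Their precursors are cut and loaded onto Piwi proteins in cytoplasmic granules, the nuage and later the chromatoid body, which are built on Tudor domain proteins that bind methylated arginines of the Piwi proteins. In the mouse testis, *Piwil2* is already made in earlier germ cells, while *Piwil1* and the abundant class of pachytene piRNAs appear with pachynema, when the transcription factor A-MYB, the product of *Mybl1*, switches on piRNA precursor genes and many genes of the pathway.

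A gene was taken as detected where the detection p-value of the array software, which sets its signal against negative control beads, was under 0.01, and it entered the comparison when detected on at least 4 of the 8 arrays. This kept 8324 genes, among them *Piwil1*, *Piwil2*, *Tdrd6* and *Mov10l1*. *Tdrd1*, *Mael* and *Mybl1* were not detected on any array. The number of arrays limits the precision. Between 8063 and 8434 genes were detected per array. *Zfy2* itself was not detected on any array, with log2 signals of 6.05 to 6.20 in XEO,Sry and 6.15 to 6.19 in XE,Z2O,Sry. The *Zfy1* signal, whose gene neither genotype is listed to carry, was not detected on any array either, but lay at 6.13 to 6.28 in XEO,Sry and at 6.50 to 6.77 in XE,Z2O,Sry (two-sided exact permutation test, p = 0.0286, the smallest that 4 against 4 arrays allow). *Zfy1* and *Zfy2* are close copies, and whether the *Zfy1* beads read the *Zfy2* transgene was not tested. *Eif2s3y* was detected on all 8 arrays.

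**Figure D1:**
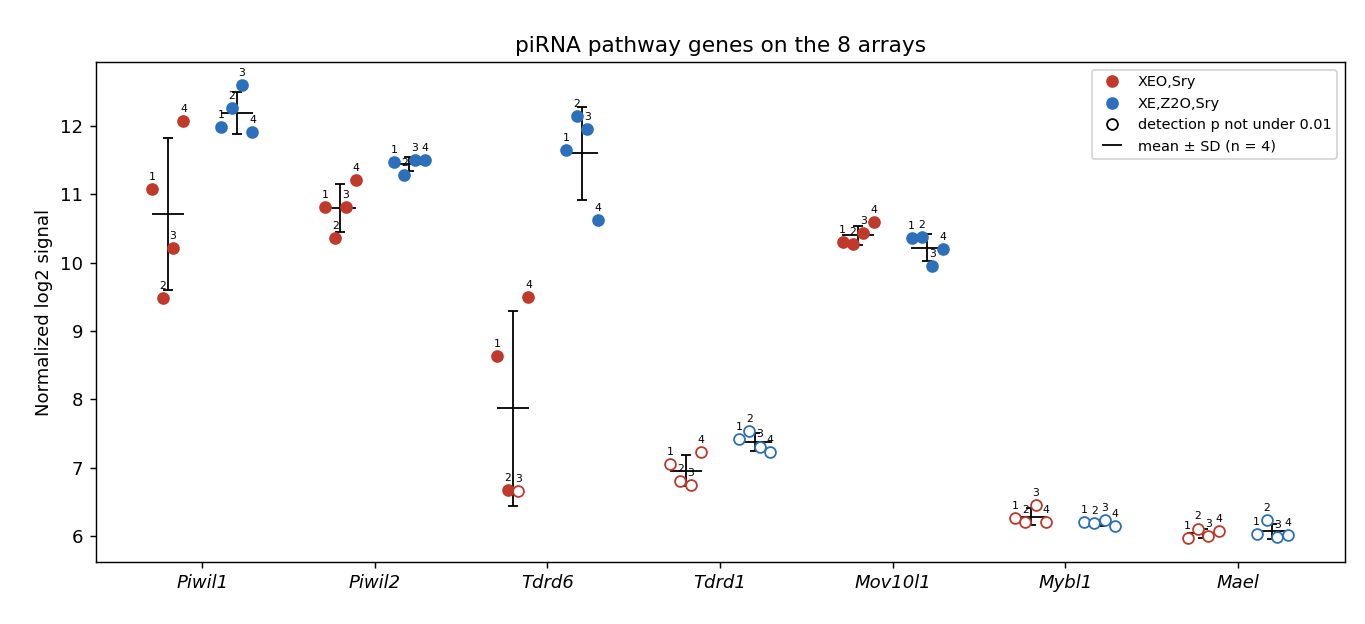
Normalized log2 signal (y axis) of the 7 genes found in the table (x axis) on each array, with XEO,Sry in red and XE,Z2O,Sry in blue, open symbols where the detection p-value was not under 0.01, small digits for the replicate number and bars for the mean ± SD (n = 4). *Tdrd6* spans 6.66 to 9.50 in XEO,Sry and 10.63 to 12.15 in XE,Z2O,Sry, whereas *Mov10l1* lies between 9.95 and 10.59 on all 8 arrays.

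*Piwil1* encodes MIWI, the Piwi protein that binds pachytene piRNAs. Its log2 signal was 11.08, 9.49, 10.21 and 12.07 in replicates 1 to 4 of XEO,Sry, and 11.99, 12.26, 12.60 and 11.92 in replicates 1 to 4 of XE,Z2O,Sry. Replicates 1, 2 and 3 of XEO,Sry lay below all 4 XE,Z2O,Sry animals, while replicate 4 lay above 2 of them. The means were 10.71 ± 1.11 and 12.19 ± 0.309 (SD, n = 4 each). Their difference was -1.48 (95% interval -2.55 to -0.41, standard error 0.473) and did not pass limma's test over all genes (adjusted p = 0.130). This is 2.79-fold lower in XEO,Sry. The spread within XEO,Sry, 2.58 from the lowest to the highest animal, was larger than the difference itself, and in XE,Z2O,Sry the spread was 0.68.

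*Piwil2* encodes MILI, the Piwi protein that also acts before pachynema. Its log2 signal was 10.82, 10.36, 10.82 and 11.21 in replicates 1 to 4 of XEO,Sry, and 11.47, 11.29, 11.51 and 11.50 in replicates 1 to 4 of XE,Z2O,Sry. All 4 XEO,Sry animals lay below all 4 XE,Z2O,Sry animals, although replicate 4 of XEO,Sry came close to replicate 2 of XE,Z2O,Sry. The means of 10.80 ± 0.347 and 11.44 ± 0.103 (SD, n = 4 each) differed by -0.64 (standard error 0.163, 95% interval -1.01 to -0.27, adjusted p = 0.114 from limma), which is 1.56-fold lower in XEO,Sry. Arrays of XEO,Sry were all below those of XE,Z2O,Sry in 4.58% of the 8324 genes, and in 2 of the 4 detected piRNA pathway genes, *Piwil2* and *Tdrd6*. None of the 4 had all XEO,Sry arrays above, as 6.34% of all genes did.

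The genotype difference was larger for *Piwil1* than for *Piwil2*, and the size of this gap was tested on each array, where scaling between arrays cancels. The log2 signal of *Piwil1* minus that of *Piwil2* was 0.25, -0.87, -0.61 and 0.86 in XEO,Sry, and 0.53, 0.97, 1.09 and 0.42 in XE,Z2O,Sry. Replicate 4 of XEO,Sry lay among the XE,Z2O,Sry values and replicate 1 just below them, and the difference of -0.84 between the genotypes did not pass (two-sided exact permutation test, p = 0.114, also 0.114 after adjustment over the 2 contrasts of this kind that could be run). A larger change of *Piwil1* than of *Piwil2* was therefore not shown. Without replicate 4 of XEO,Sry it was -1.16, with an exact p of 0.0286 that is also the lowest possible for 3 against 4.

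Among the Tudor genes, *Tdrd6* encodes a large protein of the chromatoid body with repeated Tudor domains. Its log2 signal was 8.64, 6.68, 6.66 and 9.50 in replicates 1 to 4 of XEO,Sry, and 11.65, 12.15, 11.96 and 10.63 in replicates 1 to 4 of XE,Z2O,Sry. No XEO,Sry animal came within 1.13 of the lowest XE,Z2O,Sry animal, and in replicates 2 and 3 of XEO,Sry the signal was at the edge of detection, with detection p-values of 0.00501 and 0.0125. The means were 7.87 ± 1.43 and 11.60 ± 0.677 (SD, n = 4 each). The difference of -3.73 (standard error 0.644, 95% interval -5.18 to -2.27) was the lowest of all 8324 genes and corresponds to a 13.2-fold lower signal. Over all genes it did not pass limma's test (adjusted p = 0.0798).

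*Tdrd1* encodes a Tudor protein of the nuage that binds MILI. Its detection p-values ran from 0.2505 to 0.598, so that no array passed. Its log2 signal was 7.05, 6.80, 6.74 and 7.23 in replicates 1 to 4 of XEO,Sry and 7.42, 7.53, 7.31 and 7.23 in replicates 1 to 4 of XE,Z2O,Sry. The genotypes touched in replicate 4 of each. In a fit of all genes without the detection filter, *Tdrd1* had a limma difference of -0.42 (adjusted p = 0.177, standard error 0.118). The detection p-value did not follow the signal for every gene, since 446 of the 9773 genes left out had a mean signal at or above that of *Tdrd1*, and 1703 of the genes kept had a lower one. A fold is not given for *Tdrd1*, as both genotypes were below detection.

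On the same arrays, the log2 signal of *Tdrd6* minus that of *Tdrd1* was 1.59, -0.12, -0.08 and 2.27 in XEO,Sry and 4.23, 4.62, 4.65 and 3.40 in XE,Z2O,Sry, with no overlap. The difference of -3.31 had an exact p of 0.0286 in a two-sided permutation test, the smallest that 4 against 4 arrays allow, and 0.0571 after adjustment over the 2 contrasts. *Tdrd1* did not pass the detection p-value on any array, so that the contrast was taken against a signal that may be background. Whether it sets *Tdrd6* against the *Tdrd1* transcript is therefore not known. The same comparisons of *Tdrd6* with *Tdrd5* and *Tdrd9* could not be made.

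*Mov10l1* encodes the helicase that feeds piRNA precursors into processing. Its log2 signal was 10.30, 10.27, 10.43 and 10.59 in replicates 1 to 4 of XEO,Sry, and 10.36, 10.37, 9.95 and 10.20 in replicates 1 to 4 of XE,Z2O,Sry. The animals of both genotypes overlapped. The difference was 0.18 (standard error 0.122, adjusted p = 0.378 from limma), with a 95% interval of -0.10 to 0.45, so that a loss of the size measured for *Piwil2* lies outside it. Over all 8324 genes the median difference was 0.07, and 68.2% of the genes had a lower value than *Mov10l1*.

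*Mael* encodes Maelstrom, a nuage protein needed to silence transposons in the germ line. It was not detected on any array, with log2 signals of 5.97 to 6.11 in XEO,Sry and 5.99 to 6.23 in XE,Z2O,Sry. *Mybl1* was not detected on any array either, at 6.20 to 6.46 in XEO,Sry and 6.14 to 6.24 in XE,Z2O,Sry. Without the detection filter, limma gave a difference of -0.03 for *Mael* (adjusted p = 0.893) and of 0.09 for *Mybl1* (adjusted p = 0.576). Neither passed the detection p-value on any array, and the arrays therefore do not show how much of these transcripts was present.

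**Figure D2:**
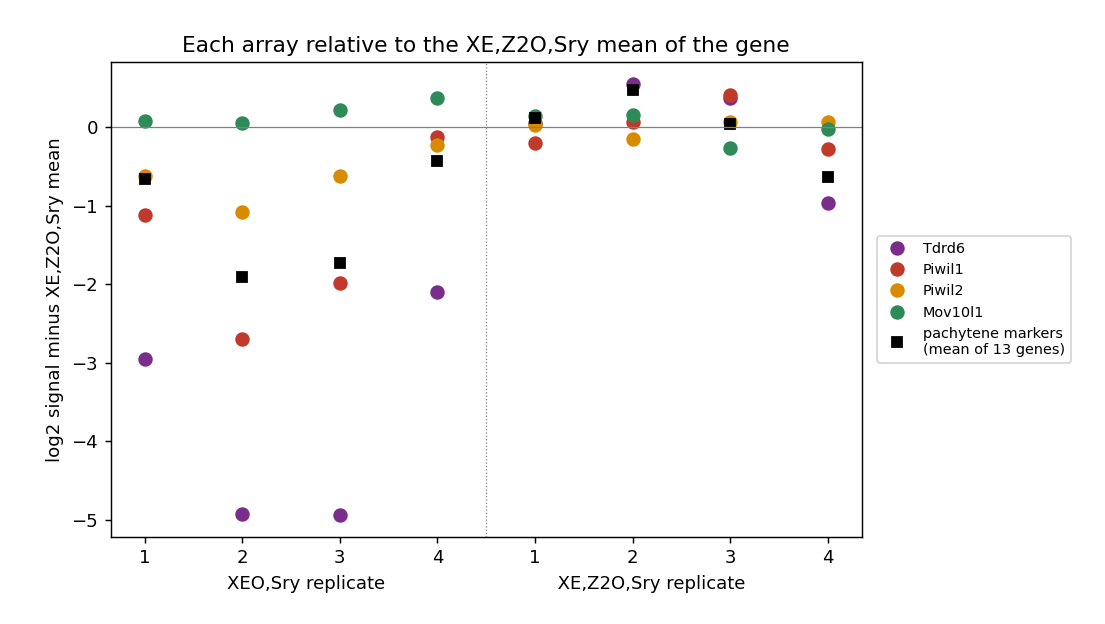
Log2 signal of the 4 detected genes and mean of the 13 detected pachytene markers on each array, minus the XE,Z2O,Sry mean of the same measure (y axis), for replicates 1 to 4 of XEO,Sry (left) and of XE,Z2O,Sry (right). In XEO,Sry, *Tdrd6* lies lowest on every array, *Mov10l1* lies above 0 on every array, and *Piwil1*, *Piwil2*, *Tdrd6* and the marker mean are each highest in replicate 4.

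Of the 4 detected genes, 3 were lower in XEO,Sry at an unadjusted p under 0.05 and 0 were higher, where 12.0% of the 8324 genes were lower and 12.9% higher by the same rule. The same 3 genes were lower by more than 1.5 fold, as were 6.63% of all genes, and none was higher by more than 1.5 fold, as 0.973% of all genes were. At an adjusted p of 0.05, 0 of the 4 were called, and 0.0601% of all genes, 0.0360% lower and 0.0240% higher. The genes were chosen with earlier results of these arrays known, and these counts describe the 4 genes and are no test of the pathway.

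**Figure D3:**
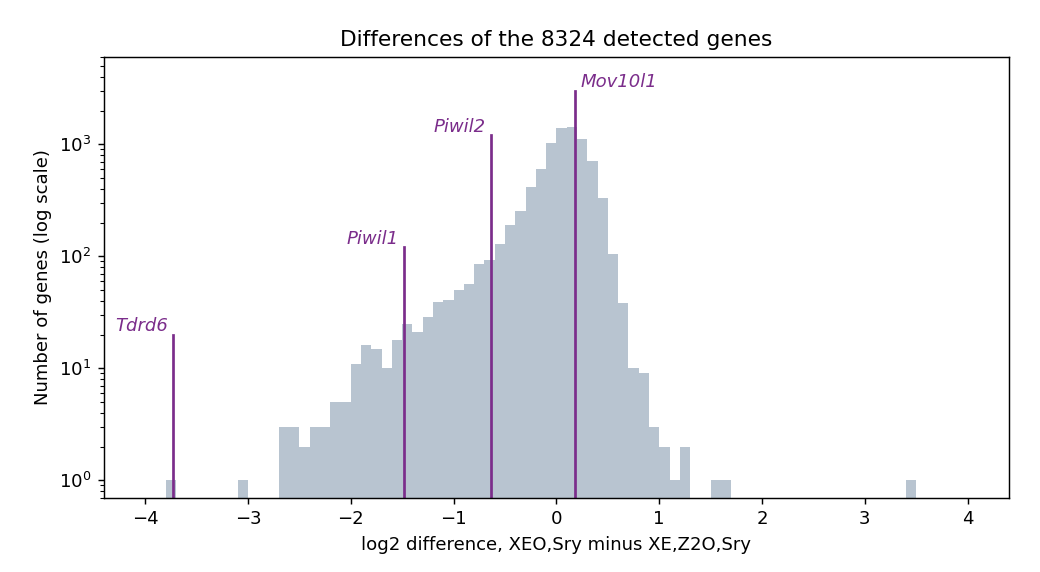
Number of genes (y axis, log scale) by log2 difference, XEO,Sry minus XE,Z2O,Sry (x axis, bins of 0.1), for the 8324 detected genes, with vertical lines at the detected piRNA pathway genes. *Tdrd6* is at the lower end of the distribution at -3.73, *Piwil1* and *Piwil2* are in the lower tail, and *Mov10l1* is near the median of all genes.

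Single animals decided which genes passed. Without replicate 4 of XEO,Sry, the animal of that genotype with the highest signals of all 4 detected genes, *Tdrd6* differed by -4.27 (adjusted p = 0.0350 from limma), *Piwil1* by -1.93 (adjusted p = 0.0434) and *Piwil2* by -0.77 (adjusted p = 0.0434), and 4.76% of all genes passed with them. Without replicate 4 of XE,Z2O,Sry, *Tdrd6* passed at -4.05 (adjusted p = 0.0347), along with 6.23% of all genes, and the other 3 did not. No gene of the 4 passed when any of the other 6 animals was left out.

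Promoters of a gene with a lower signal and of one without are shown because A-MYB is known to act on piRNA pathway promoters. RefSeq windows (GRCm38.p6) were at hand for 7 of the 10 genes, *Tdrd1*, *Tdrd5*, *Tdrd9*, *Piwil1*, *Mov10l1*, *Mael* and *Gtsf1*. They were searched on both strands, over the 250 bases before the transcript start, for 4 words bound by MYB proteins, TAACTG and its variant TAACGG, together with CAACTG and its variant CAACGG. No word overlaps another in the windows printed. A word occurred in 3 of the 7 genes, *Piwil1*, *Mov10l1* and *Tdrd5*, and in 26.3% of the 27025 genes with a window. *Piwil1*, lower in XEO,Sry, holds 2 words, 139 and 73 bases before the start, and *Mov10l1*, not lower, holds 1, at 218 bases. *Tcfl5*, a transcription factor gene that acts with A-MYB in pachytene spermatocytes and was lower in XEO,Sry at an unadjusted p under 0.05, holds 4 words, 140, 118, 83 and 22 bases before the start, and 3.44% of all windows hold 2 or more. Of the other piRNA pathway genes, 20 had a window and 7 of these held a word (35.0%). Among those lower by the same rule as *Tcfl5*, *Tdrd7* holds a word in 2 of its 3 windows and *Ddx25* holds none in its only window. Words also occur in detected genes that were not lower by this rule. *Tdrkh* holds 1, *Fkbp6* holds 1 in 1 of its 2 windows and *Tdrd12* holds 1 in each of its 2 windows. *Asz1*, *Exd1*, *Prmt5* and *Tex19.1*, also detected and not lower by this rule, hold none. *Tcfl5* is printed as the one with the most words. A word is a match of letters and does not show a binding site. For *Piwil1* and *Mov10l1* the start used lies downstream of the first annotated base of the gene. The windows are printed 5′ to 3′ along the gene, with the words on either strand in capitals. That of *Piwil1* is chr5:128735996-128736245 (plus strand), that of *Mov10l1* chr15:88982744-88982993 (plus strand) and that of *Tcfl5* chr2:180642692-180642941 (minus strand).
Piwil1: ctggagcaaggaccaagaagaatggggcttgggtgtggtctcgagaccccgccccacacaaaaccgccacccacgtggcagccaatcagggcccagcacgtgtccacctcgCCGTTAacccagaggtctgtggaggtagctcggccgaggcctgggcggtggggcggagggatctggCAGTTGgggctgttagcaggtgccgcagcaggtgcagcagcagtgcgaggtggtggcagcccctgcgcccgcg
Mov10l1: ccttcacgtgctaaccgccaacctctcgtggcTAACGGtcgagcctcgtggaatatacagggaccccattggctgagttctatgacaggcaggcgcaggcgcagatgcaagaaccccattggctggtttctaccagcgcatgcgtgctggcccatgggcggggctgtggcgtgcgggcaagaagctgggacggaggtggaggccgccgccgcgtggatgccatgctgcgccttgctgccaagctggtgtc
Tcfl5: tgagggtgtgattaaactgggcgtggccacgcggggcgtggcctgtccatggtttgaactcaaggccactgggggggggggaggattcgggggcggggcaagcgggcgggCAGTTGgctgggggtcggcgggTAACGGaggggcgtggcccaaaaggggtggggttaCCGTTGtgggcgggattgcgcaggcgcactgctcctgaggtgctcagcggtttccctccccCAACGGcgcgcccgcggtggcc

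Other genes of the piRNA pathway were taken from a list of 25 genes, of which 20 were in the table and 11 were detected. At an unadjusted p under 0.05, 3 of the 11 were lower in XEO,Sry and 0 were higher, against 12.0% and 12.9% of the 8324 genes. None of the 11 passed at an adjusted p of 0.05, against 0.0601% of all genes. The median difference of the 11 was -0.23, against 0.07 over all genes. *Tdrd7*, whose Tudor domain product is part of the chromatoid body, had log2 signals of 10.36, 10.20, 10.34 and 10.82 in replicates 1 to 4 of XEO,Sry and of 11.12, 11.21, 11.34 and 11.03 in replicates 1 to 4 of XE,Z2O,Sry. The genotypes did not overlap, and the limma difference of *Tdrd7* was -0.75 (adjusted p = 0.0931, standard error 0.141). *Tcfl5*, which encodes a transcription factor of pachytene spermatocytes, differed by -0.76 (standard error 0.262, adjusted p = 0.141), and *Ddx25*, which encodes a testis RNA helicase of the chromatoid body, by -0.67 (standard error 0.263, adjusted p = 0.167). In both, replicate 4 of XEO,Sry lay among the XE,Z2O,Sry animals. For *Ddx25*, replicate 1 of XEO,Sry (12.97) also lay above replicate 4 of XE,Z2O,Sry (12.75).

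The remaining 8 detected genes of the list had unadjusted p-values above 0.05, differences between -0.41 and 0.35 and 95% intervals that span 0. *Tdrd12* (-0.41), which encodes a Tudor protein with a helicase domain, *Tdrkh* (-0.25), which encodes a mitochondrial Tudor protein that acts in trimming of piRNA ends, and *Exd1* (-0.23), a partner of *Tdrd12*, were below 0. *Asz1* (0.08), which encodes a mitochondrial membrane protein of piRNA processing, *Fkbp6* (0.23), a co-chaperone that acts with Piwi proteins, *Rnf17* (0.06), a Tudor gene, and *Prmt5* (-0.01), the methyltransferase for Piwi arginines, were on either side of 0. *Tex19.1*, a transposon control gene whose name in the table is *Tex19* and whose beads may also read its close copy, was at 0.35 (95% interval -0.11 to 0.82).

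Of the other 9 genes in the table, *Piwil4*, the third Piwi gene, was detected on 1 array, and *Ddx4*, *Stk31*, *Henmt1*, *Kif17*, *Wdr77*, *Dnmt3l*, *Morc1* and *Tex15* did not reach 4 arrays either. *Ddx4*, which encodes the germ cell helicase VASA, had log2 signals of 7.64 to 7.97 in XEO,Sry and 7.94 to 8.72 in XE,Z2O,Sry, and *Stk31*, a Tudor kinase gene, 7.95 to 8.73 and 8.68 to 9.38. Without the detection filter, 6 genes of the list were lower at an unadjusted p under 0.05, with *Ddx4* at -0.46, *Stk31* at -0.72 and *Henmt1*, which encodes the methyltransferase of piRNA 3′ ends, at -0.33 in addition to *Tdrd7*, *Tcfl5* and *Ddx25*. By the same rule 7.45% of all 18097 genes were lower. *Ddx4*, *Stk31* and *Henmt1* did not pass the detection p-value on any array. As this p-value did not follow the signal for every gene, it is not known whether their signals were above background. *Btbd18*, *Pld6*, *Gpat2*, *Pnldc1* and *Spocd1* were not found in the table and are not analysed here.

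**Figure D4:**
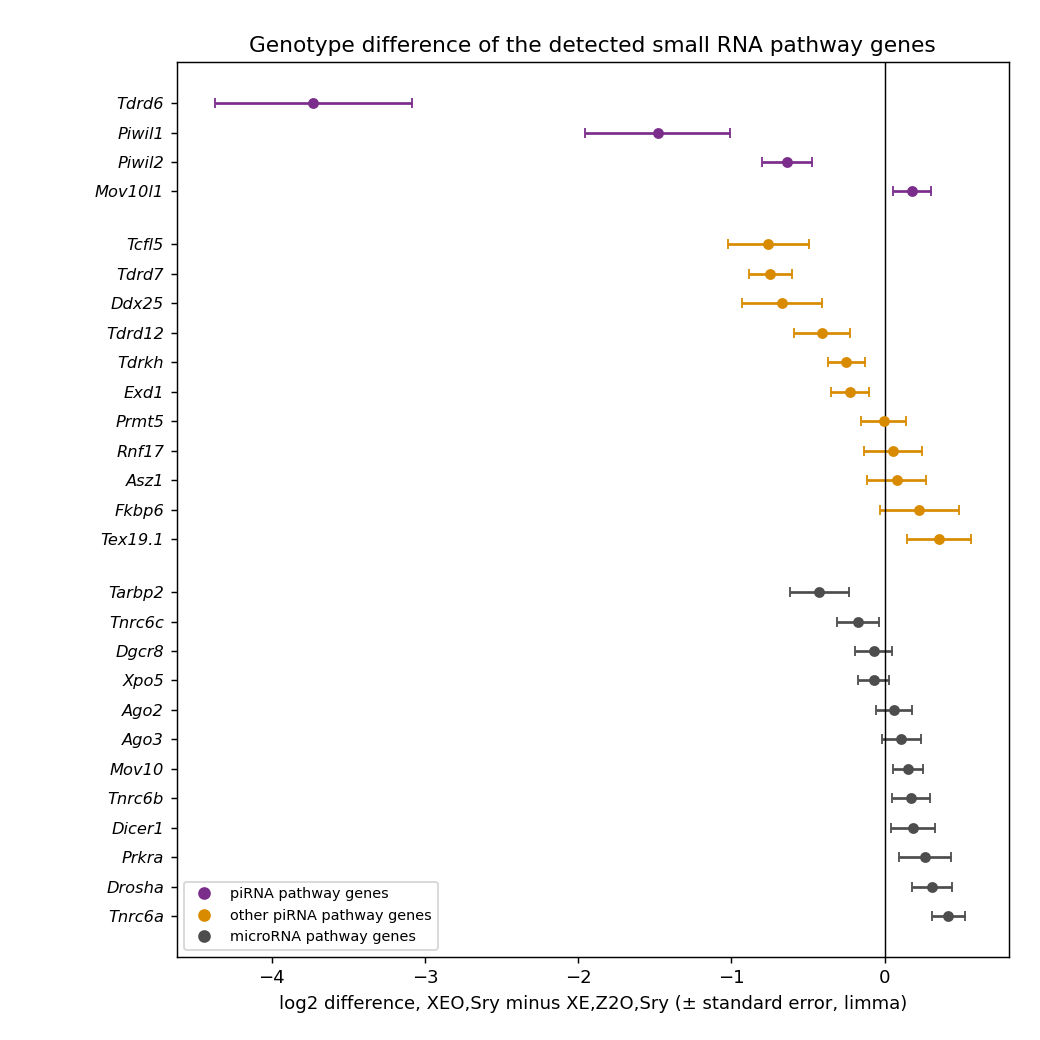
Log2 difference, XEO,Sry minus XE,Z2O,Sry, with limma's standard error (x axis) for each detected gene (y axis) of the piRNA pathway genes (purple), of the other piRNA pathway genes (orange) and of the microRNA pathway genes (grey). *Tdrd6* at -3.73 and *Piwil1* at -1.48 lie furthest below the microRNA pathway genes, which lie between -0.43 and 0.41. *Tcfl5*, *Tdrd7*, *Ddx25* and *Piwil2* also lie below that range, and the remaining piRNA pathway genes shown lie within it.

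MicroRNAs are made and used by a related machinery, in which Argonaute proteins take the place of Piwi proteins. Of 14 microRNA pathway genes listed, 12 were detected, and their differences ran from -0.43 to 0.41 with a median of 0.13. The Argonaute genes *Ago2* and *Ago3* were at 0.06 (95% interval -0.20 to 0.32) and 0.11 (95% interval -0.17 to 0.39). None of the 12 was lower at an unadjusted p under 0.05, against 12.0% of all genes, and 2 were higher, against 12.9% of all genes, *Tnrc6a*, which encodes a GW182 protein that acts with Argonautes, by 0.41 and *Drosha*, the nuclease for primary microRNAs, by 0.31. Neither passed over all genes (adjusted p = 0.114 and 0.186 from limma). The mean of the 12 genes ranged from 8.24 to 8.30 in XEO,Sry and from 8.12 to 8.29 in XE,Z2O,Sry.

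Since the RNA came from the whole testis, fewer cells of a type and less RNA per cell cannot be told apart. Markers of pachytene spermatocytes were lower in XEO,Sry, as were *Tdrd6*, *Piwil1* and *Piwil2*, whereas *Mov10l1* was not. Of 25 such markers listed, 13 were detected. All 13 had a lower mean in XEO,Sry, as had 3159 of all 8324 genes. At an unadjusted p under 0.05, 11 were lower, against 12.0% of all genes. None of the 13 passed at an adjusted p of 0.05, against 0.0601% of all genes. The mean log2 signal of the 13 ranged from 9.08 to 10.55 in XEO,Sry and from 10.35 to 11.45 in XE,Z2O,Sry. Replicate 4 of XEO,Sry thus lay above replicate 4 of XE,Z2O,Sry. The sperm surface gene *Adam3* at -2.44 and the testis phosphoglycerate kinase gene *Pgk2* at -2.10 had the lowest values, and *Calr3* was at 0.00. The part of this shift in the piRNA pathway values was not tested.

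Measured from the mean of the 13 markers on the same array, the 4 genes went different ways. *Tdrd6* lay -1.68, -2.40, -2.59 and -1.05 from the marker mean in replicates 1 to 4 of XEO,Sry, and 0.56, 0.70, 0.94 and 0.28 from it in replicates 1 to 4 of XE,Z2O,Sry. It thus lay below the marker mean on every XEO,Sry array and above it on every XE,Z2O,Sry array, with a mean difference of -2.55. *Piwil1* lay 0.91 ± 0.463 from the markers in XEO,Sry and 1.21 ± 0.419 in XE,Z2O,Sry (SD, n = 4 each), with overlap. *Piwil2* was 0.54 higher relative to the markers in XEO,Sry, with overlap, and *Mov10l1* was 1.36 higher without overlap. The marker mean itself differed by -1.18, so that a gene with little difference of its own also comes out higher on this scale. How many of all genes do so without overlap was not counted. These relative values are a description and were not tested.

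Markers of other cells of the testis differed less. Of the 11 detected markers of early meiotic prophase, 4 were lower and 7 higher in XEO,Sry, with a median difference of 0.02. The 2 largest differences were those of the meiotic break gene *Spo11* (-0.57) and the crossover gene *Msh4* (-0.44). The mean of the 11 lay at 9.06 to 9.24 in XEO,Sry and 9.15 to 9.23 in XE,Z2O,Sry. Of the 10 detected spermatogonial markers, with a median of 0.13, 9 were higher and 1 was lower. Of the 9 Sertoli cell markers, with a median of 0.23, 8 were higher and 1 was lower. Among the spermatogonial genes, *Uchl1* was at 0.45 and *Id4*, a gene of undifferentiated spermatogonia, at -0.89, and among the Sertoli cell genes the inhibin subunit *Inha* was at 0.59 and the ligand *Dhh* at 0.45. Of 4 Leydig cell markers, with a median of -0.04, 2 were lower and 2 higher, and the largest differences were lower (*Cyp17a1* -0.33, *Cyp11a1* -0.15). Medians were 0.26 over 4 peritubular and vessel markers (*Myh11* 0.29, *Acta2* 0.29) and 0.26 over 4 macrophage markers (*C1qb* 0.31, *Cd68* 0.31). All detected peritubular, vessel and macrophage markers were higher. Of all 8324 genes, 5165 were higher and 3159 lower, with a median of 0.07. No marker of these 6 lists passed at an adjusted p of 0.05, against 0.0601% of all genes. *Stra8* is on both the early prophase and the spermatogonial list.

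The genes whose pattern over the 8 arrays was most like the mean standardized signal of *Piwil1*, *Piwil2*, *Tdrd6* and *Mov10l1* were *Hspa2* (Pearson's r = 0.984), *Sfrs14* (0.978), *Col16a1* (0.978), *Ars2* (0.977) and *Kctd19* (0.975). *Hspa2*, the testis heat shock protein gene, is on the list of pachytene markers. Their differences between the genotypes lay between -0.91 for *Col16a1* and -0.28 for *Ars2*, with adjusted p-values of 0.118 to 0.255 from limma. The coefficients were taken over both genotypes together, hold the genotype difference and were selected as the highest of all detected genes, and they are given as a measure of likeness only.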

How the data were processed

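Total RNA of the whole testis of 1 animal was hybridized to each of 8 arrays (mouse whole-genome BeadChip), 4 per genotype by the labels, whereas the Methods give 3 animals. Genotype and replicate number came from the sample titles. The replicate numbers are not stated to pair animals. The submitters' processing notes name GenomeStudio 2011.1. Gene-level log2 signals, deposited after quantile normalization by the authors, were the main values, with a detection p-value deposited for each gene and array. The deposited linear signal intensity values called non-normalized have array medians of 105.5 to 106.3, so that they were already aligned. They served for alternatives only. How probes were averaged to genes is not given in the sources used here. Identical log2 values for 18091 genes are in the series table.

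Genes detected (p under 0.01) on at least 4 of 8 arrays entered a limma fit (version 3.58.1, R 4.3.3) by genotype alone. P-values are two-sided and were adjusted by Benjamini-Hochberg over all 8324 such genes, and 95% intervals come from the moderated fit. This script was tested on simulated data. Contrasts on the same array were tested by exact permutation of the 70 assignments of arrays. Alternatives were other filters, normexp background correction (offset 50), median centring, the series table, another variance model, a replicate block and leaving out each animal. A filter on mean signal was added after the data were seen. The members and lists were chosen with earlier results of these data known. Named genes are the 10 members, genes of the piRNA and microRNA lists at an unadjusted p under 0.05, the 2 largest differences of each marker list, the 5 genes most alike, and genes not found or not detected. The other genes of the piRNA list, *Calr3*, *Ago2*, *Ago3*, *Stra8* and the Y genes were named after their values were seen. Gene symbols were matched to GRCm38.p6 RefSeq, also by synonym (*Ago2*, *Ago3*, *Drosha*, *Exd1*, *Henmt1*, *Tex19.1*). The other 2 of the 4 planned contrasts within arrays needed *Tdrd5* and *Tdrd9*. Other steps ran in Python 3.11.15 with pandas 2.3.3 and numpy 2.4.6.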

Additional observations from a re-analysis of the deposited data

Results flagged for a closer look

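1 of the 14 sets of 4 arrays (7 genes in 2 genotypes) held an array far from the others, where chance gives about 1 in 20. *Mael* lay at 6.23 in replicate 2 of XE,Z2O,Sry and at 5.99 to 6.03 in the other 3 animals, none of them detected, so that the gap lies within undetected signal.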

How the results depend on the processing

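The differences of the 4 detected genes, the 2 contrasts within arrays and the pachytene marker mean kept their direction under every alternative run. Differences of single genes on the other lists were not followed through the alternatives. With other filters, background correction, centring, variance model or a replicate block, *Piwil1*, *Piwil2*, *Tdrd6* and *Mov10l1* stayed on their side of the threshold, and *Tdrd6* lay at -3.81 with normexp correction and -3.68 with median centring. *Tdrd6* could not be fitted where detection on all 8 arrays was required. Leaving out each animal gave -1.93 to -1.08 for *Piwil1*, -0.77 to -0.49 for *Piwil2*, -4.27 to -3.32 for *Tdrd6* and 0.09 to 0.23 for *Mov10l1*. From 0 to 3 of these genes then passed. Over all alternatives the adjusted p ran from 0.0434 to 0.305 for *Piwil1*, 0.0434 to 0.299 for *Piwil2*, 0.0347 to 0.259 for *Tdrd6* and 0.363 to 0.663 for *Mov10l1*. Of the other piRNA pathway genes, 1 to 5 were lower and 0 to 1 higher at an unadjusted p under 0.05 on leaving out an animal, and 6 were lower with no filter on dim genes, where more genes were counted. The contrast of *Piwil1* and *Piwil2* ranged from -1.16 to -0.58 and that of *Tdrd6* and *Tdrd1* from -3.76 to -2.97. Same-numbered arrays deviated together in replicates 1 and 3 (r = 0.426 and 0.327 across genes) and not in 2 and 4 (-0.232 and -0.421). Differently numbered arrays ranged more widely. Replicate 3 of XEO,Sry had r = 0.747 with replicate 4 of XE,Z2O,Sry and r = -0.722 with its replicate 2. With deviations taken from the mean of only 4 arrays per genotype, these values cannot show whether same-numbered samples share more than a number. With a replicate block, calls over all genes went from 5 to 1, *Tdrd6*, *Piwil1* and *Piwil2* had an adjusted p of 0.231 each, and the contrast of *Tdrd6* and *Tdrd1*, at -3.31, had an exact p of 0.125, the smallest that 4 pairs allow. Signals near background, as of *Tdrd6* in XEO,Sry replicates 2 and 3, limit how large a fold can be measured.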
